A study of Mus musculus with 16 samples.

Results

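The canonical inflammasome and the interleukin-1 family were followed here through 9 genes: the sensors Nlrp3 and Aim2, the adaptor Pycard, the proteases Casp1 and Casp4, the pore-forming Gsdmd and the cytokines Il1a, Il1b and Il18. Each was found by its gene symbol in the deposited count table, and these 9 were taken from 54532 entries, of which 17736 had enough counts to be tested. All 9 were tested. The table holds bulk RNA-seq of brain tissue from female mice aged 9 months, with 16 libraries in 4 groups of 4. The groups cross the genotype at Ch25h, the gene of cholesterol 25-hydroxylase, with the presence of a tau transgene or allele that the labels name only as Tau. The controls are wild type for Ch25h without tau (Ch25h+/+ Tau-), the 2 single groups carry tau alone (Ch25h+/+ Tau+) or lack Ch25h alone (Ch25h-/- Tau-), and the last combines both (Ch25h-/- Tau+). The labels name neither the tau line nor its promoter, and nothing in them says that the 4 libraries of a group came from separate animals, so the p-values measure the spread between these libraries, which may be technical. The sample labels give the tissue as frontal cortex and the series description gives it as hippocampus. The summed level of 6 cortical markers was 628.8 to 851.3 CPM (read counts scaled to a common library size) and that of 6 hippocampal markers was 170.1 to 312.8 CPM.

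As background, NLRP3 senses disturbances of the cell such as potassium loss or lysosomal damage, and AIM2 binds double-stranded DNA in the cytosol. Both gather the adaptor ASC, encoded by Pycard, into a scaffold that activates caspase-1, which matures the precursors of interleukin-1β and interleukin-18 and cuts gasdermin D, whose fragments open pores in the membrane. Mouse caspase-11, encoded by Casp4, binds bacterial lipopolysaccharide in the cytosol and cuts gasdermin D directly. In the brain these genes are known mainly from microglia, the resident macrophages, where interleukin-1β must be induced before it can be processed. Messenger RNA levels do not show assembly, cleavage or release.

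Each library held 15530352 to 25602500 counts, so that 3 counts, the floor used here, were worth 0.117 to 0.195 CPM. Ch25h was at 0.370 ± 0.144 CPM in Ch25h+/+ Tau- and 0.963 ± 0.319 CPM in Ch25h+/+ Tau+ (mean ± SD, n = 4), and had 0 counts in all 8 Ch25h-/- libraries, which is at least 2.10-fold lower in Tau- and at least 5.75-fold lower in Tau+ against 3 counts per library. Among the Ch25h-/- libraries 7 of 8 were rich in 1 ribosomal RNA transcript (2289 to 5684 CPM of the library total), while the other 9 libraries held 110.8 to 474.6. Ch25h-/- Tau+ replicate 1, at 153.5, was the only Ch25h-/- library among those 9. The effect of Ch25h loss in Tau- therefore cannot be told apart from this library class, the effect in Tau+ within a class rests on 1 library, and the effect of tau in Ch25h+/+ lies within the class with little of that transcript.

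The members were of low abundance apart from Il18. Levels are CPM of the TMM-scaled library size. Mean counts over the 16 libraries were 231.4 for Il18 (range 164 to 312), 66.1 for Gsdmd (40 to 112), 58.9 for Casp1 (26 to 75), 43.8 for Aim2 (23 to 75), 38.4 for Pycard (23 to 77), 28 for Nlrp3 (12 to 62) and 13.4 for Il1a (5 to 23). Casp4 and Il1b were near the floor, with means of 7.81 counts (2 to 19) and 7.75 counts (0 to 19). Of the 16 libraries, 4 held no more than 3 counts of Casp4 and 3 held no more than 3 counts of Il1b. Per kilobase of exon, the scale on which genes can be compared, the level of Il18 was 11.7 ± 1.93 CPM per kb (SD, n = 16), followed by Casp1 at 2.05 ± 0.428, Gsdmd at 1.44 ± 0.381, Aim2 at 0.653 ± 0.185, Pycard at 0.525 ± 0.163, Il1a at 0.355 ± 0.151, Nlrp3 at 0.353 ± 0.151, Il1b at 0.204 ± 0.142 and Casp4 at 0.107 ± 0.0723. The lowest Il18 library (8.87 CPM per kb) stood above the highest Casp1 library (2.95). Every other pair of neighbours in this order overlapped in range.

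The members lie on 6 chromosomes (GRCm38, GENCODE M21). Casp1 (chr9:5298517-5307265) and Casp4 (chr9:5308828-5336783) are neighbours on the plus strand with a gap of 1562 bases, and Il1a (chr2:129299610-129309972) and Il1b (chr2:129364570-129371139) lie on the minus strand with a gap of 54597 bases. Nlrp3 is at chr11:59541568-59566956, Aim2 at chr1:173350879-173466040, Gsdmd at chr15:75862327-75867408 and Il18 at chr9:50554827-50581840 on the plus strand, and Pycard is at chr7:127989708-127993867 on the minus strand. Whether the counting used strand is not given in the sources used here, so reads from overlapping genes cannot be assigned with certainty. The antisense transcript Il1bos shares 25 exonic bases, 1.31% of the exonic length of Il1b, and was listed at 0 to 0.418 CPM. Gm45205 shares 485 bases with Pycard (12.8%) and Gm14023 shares 222 bases with Il1a (11.2%), at no more than 0.252 and 0.372 CPM. Aim2 overlaps Cadm3, an abundant gene on the other strand at 423 to 580 CPM, without sharing exonic bases.

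The RefSeq promoter table (GRCm38.p6) held 8 of the 9 members, Gsdmd not among them. The 250 bases before the start are shown for Aim2 (chr1:173420354-173420603, plus strand), Pycard (chr7:127993868-127994117, minus strand), Casp4 (chr9:5308599-5308848, plus strand, the upstream of its listed starts) and Il1b (chr2:129371140-129371389, minus strand), since these 4 had unadjusted p-values under 0.05 for tau in Ch25h+/+. They are written 5′ to 3′ in lower case, with matches to the motifs searched in capitals.
Aim2: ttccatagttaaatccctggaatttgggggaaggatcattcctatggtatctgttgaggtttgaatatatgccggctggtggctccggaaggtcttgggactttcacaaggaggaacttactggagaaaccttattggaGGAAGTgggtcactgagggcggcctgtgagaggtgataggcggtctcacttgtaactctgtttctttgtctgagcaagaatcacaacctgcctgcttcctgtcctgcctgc
Pycard: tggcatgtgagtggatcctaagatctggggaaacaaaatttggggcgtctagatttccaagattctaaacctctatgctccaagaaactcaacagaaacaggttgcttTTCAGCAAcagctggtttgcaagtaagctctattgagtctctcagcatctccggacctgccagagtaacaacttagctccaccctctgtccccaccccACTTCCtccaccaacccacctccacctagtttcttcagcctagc
Casp4: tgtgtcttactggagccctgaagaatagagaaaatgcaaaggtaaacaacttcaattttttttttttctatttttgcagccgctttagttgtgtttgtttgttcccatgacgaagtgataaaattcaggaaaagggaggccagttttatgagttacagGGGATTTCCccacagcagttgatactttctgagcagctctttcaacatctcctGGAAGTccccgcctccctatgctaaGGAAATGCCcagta
Il1b: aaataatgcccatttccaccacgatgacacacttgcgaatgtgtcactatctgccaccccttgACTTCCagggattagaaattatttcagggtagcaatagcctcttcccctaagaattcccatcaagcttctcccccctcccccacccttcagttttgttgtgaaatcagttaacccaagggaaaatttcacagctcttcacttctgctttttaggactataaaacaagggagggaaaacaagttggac
PU.1 is a lineage factor of macrophages and microglia. Of the 8 members these 4 hold the core of its binding site (GGAAGT or its reverse complement). It lies at -111 to -106 in Aim2, -44 to -39 in Pycard, -39 to -34 in Casp4 and -187 to -182 in Il1b, on the reverse strand in Pycard and Il1b, counted from -1 at the last base before the start. The same 6 letters occur in 19.7% of 32851 promoter windows of this length. That share is per window, while Nlrp3 and Casp4 have 2 listed starts each. The 4 members were chosen by their p-values in these data. Casp4 and Il1b were tested only through Ch25h+/+ Tau+, where they were high, so the presence of the core is given as a description. The start listed for Il18 was not matched to an annotated transcript. The NF-kappaB motif GGNNTTTCC, searched on both strands like all the others, is in Casp4 at -92 to -84 and -14 to -6 and in both listed starts of Nlrp3, against 4.93% of windows. The C/EBP motif TTGCNNAA is in Pycard alone of the 8, against 9.56%. The core of the interferon-stimulated response element, GAAANNGAA, and the gamma-activated site, TTCNNNGAA, are in no window of the 8 members, against 7.13% and 7.02% of all windows. No marked matches overlap each other, and a match of letters describes the sequence only.

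The first comparison was that of tau in Ch25h+/+ mice. Gsdmd, the pore former, rose 1.70-fold in Ch25h+/+ Tau+ against Ch25h+/+ Tau-, and it was the only member to pass the test (edgeR's quasi-likelihood test, Benjamini-Hochberg adjusted p under 0.05). All 9 log2 fold changes were above 0, with a median of 0.72, beside a median of -0.008 over all 17736 genes, of which 47.8% were above 0. Of the 9 members 1 passed, in a comparison where 1.47% of all tested genes passed upward and 1.56% in either direction (2.39% in DESeq2 and 2.81% in limma-voom). The filter on low counts asked for 0.543 CPM in 4 libraries, and Casp4 and Il1b met it only with the Ch25h+/+ Tau+ libraries, the group in which they were high, so their separation from the other groups is given as a description. Of the 7 members that passed the filter without those libraries 1 was called, 3 had an unadjusted p under 0.05 and 2 (Gsdmd and Aim2) had every Tau+ library above every Tau- library, with a median log2 fold change of 0.64. Among the 17413 genes that passed in that way the shares were 1.36%, 9.21% and 3.68%. Over all tested genes 9.38% had an unadjusted p under 0.05 and 3.89% were free of overlap upward.

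**Figure D1:**
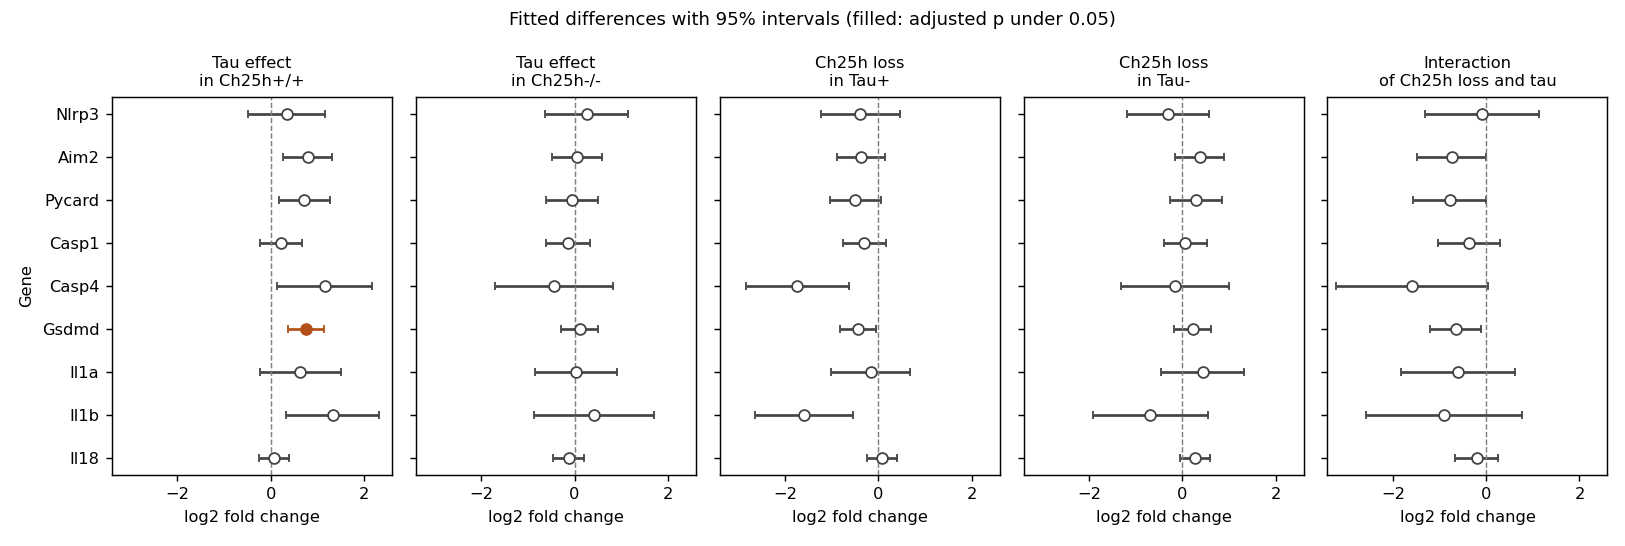
Log2 fold changes of the 9 members (vertical axis) in the comparisons of the design (panels), with points for the estimates, bars for 95% confidence intervals and filled points for an adjusted p under 0.05 by edgeR's quasi-likelihood test. Only Gsdmd in the tau comparison in Ch25h+/+ is filled, at 0.77.

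Among the sensors, Aim2 was at 1.71, 2.46, 1.21 and 1.46 CPM in the 4 Ch25h+/+ Tau- libraries and at 2.96, 2.74, 3.49 and 2.62 CPM in the 4 Ch25h+/+ Tau+ libraries. The lowest Tau+ library was thus above the highest Tau- library. The log2 fold change was 0.79 (SE 0.248), which did not pass the test (edgeR adjusted p = 0.168). In Ch25h-/- mice the Aim2 libraries overlapped, at 2.83, 2.59, 2.11 and 1.28 CPM without tau and 2.19, 2.86, 2.05 and 2.06 CPM with it. Nlrp3, the sensor of cell damage, did not separate the groups: the Ch25h+/+ libraries ran from 0.856 to 2.17 CPM without tau and 0.862 to 2.61 CPM with it, and the Ch25h-/- libraries from 0.843 to 1.77 CPM without and 0.704 to 2.10 CPM with it. Its log2 fold change for tau in Ch25h+/+ was 0.34, with a 95% interval from -0.49 to 1.17 that includes 0 (edgeR adjusted p = 0.928).

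Pycard, whose product joins the sensors to caspase-1, was at 1.34, 1.70, 2.11 and 1.16 CPM in Ch25h+/+ Tau- and at 2.46, 2.10, 2.28 and 3.595 CPM in Ch25h+/+ Tau+. Replicate 3 of the Tau- group and replicate 2 of the Tau+ group met at 2.11 and 2.10 CPM, so the groups overlapped. The log2 fold change was 0.72 (SE 0.258), and it did not pass the test (edgeR adjusted p = 0.284). In Ch25h-/- mice Pycard was at 2.89, 1.77, 1.75 and 1.34 CPM without tau and 1.60, 2.27, 1.76 and 1.81 CPM with it, and the highest library of the 8 was without tau.

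Casp1, the protease of the canonical pathway, stayed within a narrow band in 3 groups: 2.82 to 3.15 CPM in the Ch25h+/+ libraries without tau, 3.07 to 4.004 CPM in those with it and 2.83 to 3.74 CPM in Ch25h-/- Tau-. In Ch25h-/- Tau+ it spread from 1.62 to 4.42 CPM. Its log2 fold change for tau in Ch25h+/+ was 0.22, with an interval from -0.24 to 0.68 (edgeR adjusted p = 0.894). Casp4, the sensor protease of the noncanonical pathway, had 7, 2, 16 and 3 counts in the Ch25h+/+ Tau- libraries, 15, 19, 15 and 12 in Ch25h+/+ Tau+, 9, 4, 5 and 2 in Ch25h-/- Tau- and 4, 5, 5 and 2 in Ch25h-/- Tau+. The Ch25h+/+ Tau+ libraries were high throughout, and replicate 3 of Ch25h+/+ Tau- lay within their range in CPM. The log2 fold change for tau in Ch25h+/+ was 1.15 (SE 0.483, edgeR adjusted p = 0.423), and 1.87 without that replicate (edgeR adjusted p = 0.106).

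Gsdmd was at 2.54, 2.19, 3.19 and 2.72 CPM in Ch25h+/+ Tau-, at 5.42, 3.49, 4.09 and 5.23 CPM in Ch25h+/+ Tau+, at 4.04, 2.71, 3.01 and 2.73 CPM in Ch25h-/- Tau- and at 3.44, 3.57, 3.47 and 2.998 CPM in Ch25h-/- Tau+. The Ch25h+/+ groups did not overlap, and the means of the Ch25h-/- groups lay between theirs. For tau in Ch25h+/+ the log2 fold change was 0.77 (SE 0.184, 95% interval 0.38 to 1.15, edgeR adjusted p = 0.0394). The direction was the same in all 22 alternatives and the call was kept in 12 of them. That tally includes fits that left out a Ch25h-/- library, which is not among those compared. Of the fits without a compared library, only those without Ch25h+/+ Tau- replicate 3 or Ch25h+/+ Tau+ replicate 2 kept the call. The adjusted p rose to 0.125, 0.14 and 0.104 without Ch25h+/+ Tau- replicate 1, 2 or 4, to 0.0998, 0.0522 and 0.181 without Ch25h+/+ Tau+ replicate 1, 3 or 4, and to 0.0513 without Ch25h-/- Tau+ replicate 3 (edgeR in each). It was 0.07 with no filter on low counts, 0.116 with only the 8 libraries compared and 0.0512 with the library class as a covariate.

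**Figure D2:**
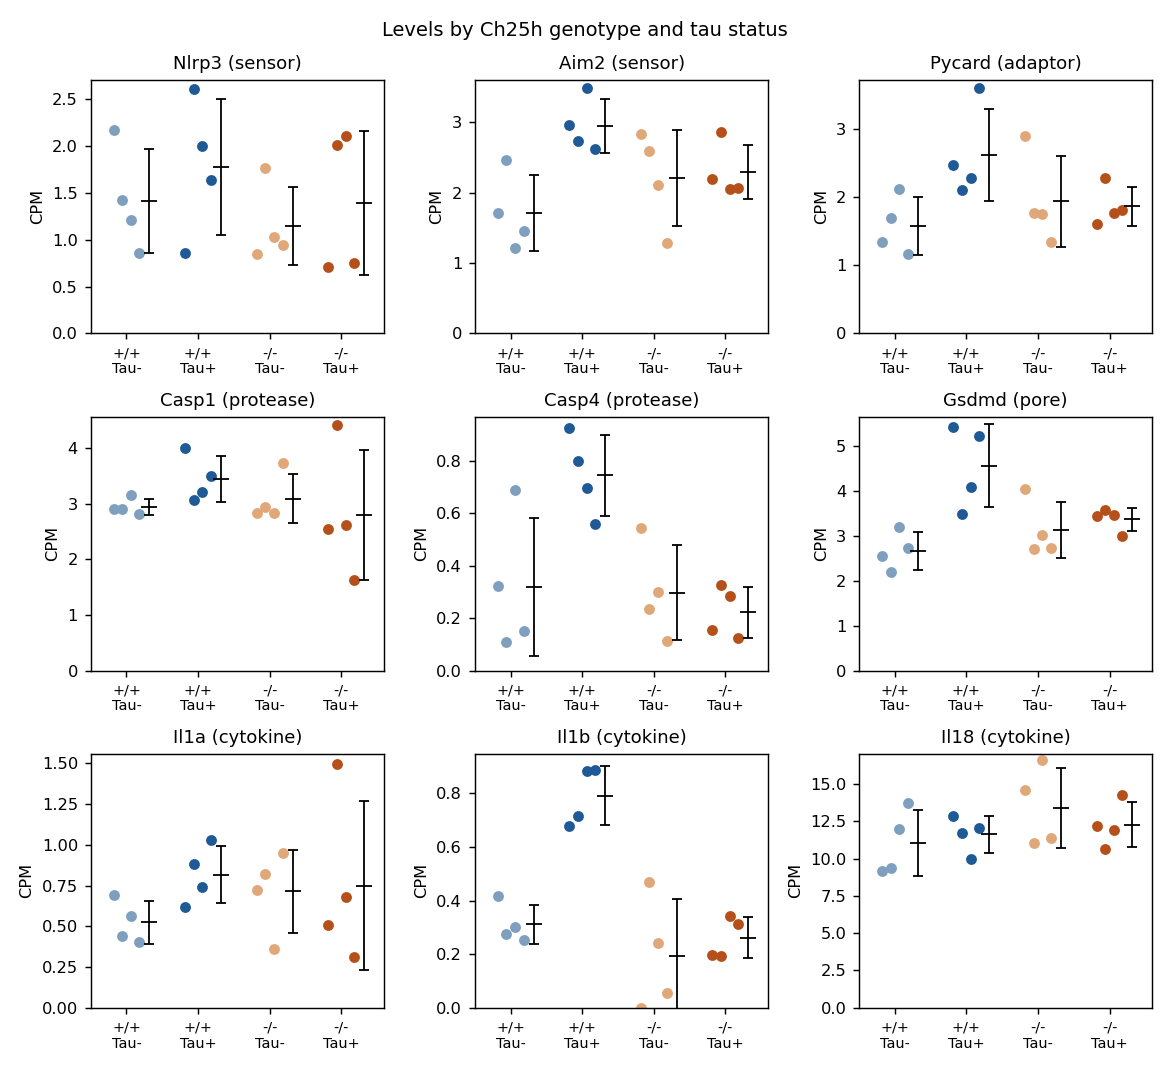
Level of each member (CPM, linear axis starting at 0) in the 16 libraries by group, with points for libraries and bars for the mean ± SD of 4. Gsdmd, Aim2 and Il1b are higher in every Ch25h+/+ Tau+ library than in every Ch25h+/+ Tau- library, and the Il18 and Nlrp3 groups overlap. Il1b passed the filter on low counts only through Ch25h+/+ Tau+.

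Of the cytokines, Il1b had 9, 5, 7 and 5 counts in Ch25h+/+ Tau-, 11, 17, 19 and 19 in Ch25h+/+ Tau+, 0, 8, 4 and 1 in Ch25h-/- Tau- and 5, 3, 6 and 5 in Ch25h-/- Tau+. In CPM these were 0.416, 0.274, 0.302 and 0.252, then 0.678, 0.715, 0.883 and 0.887, then 0, 0.471, 0.241 and 0.0558, and 0.196, 0.195, 0.341 and 0.312. All 4 Ch25h+/+ Tau+ libraries were above every other library. The log2 fold change for tau in Ch25h+/+ was 1.33 (SE 0.474, 95% interval 0.33 to 2.32), and at these counts it did not pass the test (edgeR adjusted p = 0.282, range 0.0786 to 0.61 over its alternatives). Il1a, which encodes a cytokine that is active without caspase-1, was at 0.524 ± 0.132 CPM in Ch25h+/+ Tau- and 0.818 ± 0.177 CPM in Ch25h+/+ Tau+ (SD, n = 4), with overlapping groups and a log2 fold change of 0.64 (edgeR adjusted p = 0.737). Il18, the most abundant member and the best measured, was at 11.05 ± 2.19 CPM in Ch25h+/+ Tau- and 11.64 ± 1.23 CPM in Ch25h+/+ Tau+. Its log2 fold change of 0.07 had an interval from -0.25 to 0.40 (edgeR adjusted p = 0.974).

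In Ch25h-/- mice no member passed the test for tau. Of the 9 members 0 passed edgeR's test, DESeq2's or limma-voom's, none had an unadjusted edgeR p under 0.05 (beside 3.68% of all genes) and no groups were free of overlap (beside 1.14% of all genes upward and 0.992% downward), in a comparison where 0.0395% of all genes passed in edgeR, 0.079% in DESeq2 and 0.0338% in limma-voom. The log2 fold changes ran from -0.43 for Casp4 to 0.42 for Il1b, 5 of 9 were above 0 (52.8% of all genes), and the median was 0.03 beside 0.008 over all genes. For Gsdmd the estimate was 0.11, with a 95% interval from -0.28 to 0.51. For Il1b, at 0.261 ± 0.0767 CPM with tau and 0.192 ± 0.213 CPM without (SD, n = 4), the interval from -0.88 to 1.71 includes the estimate found in Ch25h+/+.

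The difference between the tau effects in Ch25h-/- and Ch25h+/+ was tested as an interaction. Casp4 (-1.58) and Il1b entered the test only through Ch25h+/+ Tau+, so their estimates are given as a description. Of the other members, 7 of 7 were below 0, from -0.78 for Pycard to -0.08 for Nlrp3, with a median of -0.60 beside 0.02 over the genes that passed the filter without that group. Of all genes 53.7% were above 0. No member passed edgeR's, DESeq2's or limma-voom's test, beside 0.31% of all genes in DESeq2 and 0.0338% in limma-voom. Gsdmd (-0.65, SE 0.263) and Pycard (-0.78) had unadjusted edgeR p-values of 0.0226 and 0.0488, beside 4.13% of all genes under 0.05 and 0.0338% past the adjusted threshold. The estimate for Il1b was -0.91 with an unadjusted edgeR p of 0.27, so the data do not show that its tau effect differs between the Ch25h genotypes. The interaction takes in all 4 groups and so shares its libraries with the other comparisons.

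Loss of Ch25h in Tau+ mice was compared against the same Ch25h+/+ Tau+ libraries that the tau comparison uses, so these values and those above are not independent. Casp4 and Il1b, the 2 members that passed the filter only through Ch25h+/+ Tau+, lay furthest apart, and their values are given as a description. Casp4 was at 0.745 ± 0.154 CPM in Ch25h+/+ Tau+ and 0.223 ± 0.0969 CPM in Ch25h-/- Tau+, and Il1b at 0.791 ± 0.110 and 0.261 ± 0.0767 CPM (SD, n = 4). In both, every Ch25h-/- Tau+ library was below every Ch25h+/+ Tau+ library. The log2 fold changes were -1.74 for Casp4 (SE 0.527, edgeR adjusted p = 0.0691) and -1.60 for Il1b (SE 0.498, edgeR adjusted p = 0.0752), neither of which passed. Of the 9 members 0 passed edgeR's test, 0 passed DESeq2's and 1, Il1b, passed limma-voom's, beside 3.55% of all genes in edgeR, 9.54% in DESeq2 and 10.6% in limma-voom. Of the 7 members that passed the filter without Ch25h+/+ Tau+, 1 (Gsdmd) had an unadjusted edgeR p under 0.05 and 0 were free of overlap downward, beside 24% and 5.64% of the genes that passed in that way and 23.9% and 5.74% of all genes tested.

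The other members lay closer together in that comparison. Gsdmd was at 4.56 ± 0.922 CPM in Ch25h+/+ Tau+ and 3.37 ± 0.255 CPM in Ch25h-/- Tau+, with a log2 fold change of -0.43 (SE 0.183, edgeR adjusted p = 0.163). Pycard had -0.49 (edgeR adjusted p = 0.251), Nlrp3 -0.39, Aim2 -0.37, Casp1 -0.30 and Il1a -0.17 (edgeR adjusted p from 0.375 to 0.837 for these 4). Il18 was the only member above 0, at 0.08 (edgeR adjusted p = 0.798), and the median of the 7 that passed the filter without Ch25h+/+ Tau+ was -0.37, beside 0.008 over the genes that did so. Of all genes 50.7% were above 0. The library class moved with this comparison. In the only Ch25h-/- Tau+ library with little of the ribosomal transcript, replicate 1, Il1b was at 0.196, Casp4 at 0.156 and Gsdmd at 3.44 CPM. The lowest Ch25h+/+ Tau+ libraries were at 0.678, 0.560 and 3.49 CPM. This sets 1 library against 4, without a share over all genes, and is given as a description. With the class as a covariate the estimates were -1.98 for Il1b, -2.20 for Casp4 and -0.40 for Gsdmd. These rest on that same library, replicate 1, and are no separate check on the class. Il1b passed without Ch25h-/- Tau- replicate 1 (edgeR adjusted p = 0.0478) and in limma-voom (adjusted p = 0.0361), and its adjusted p ranged from 0.0361 to 0.976 over the alternatives.

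Without tau, loss of Ch25h left the members overlapping between the groups in 9 of 9 cases, beside 7.64% of all genes free of overlap upward and 8.58% downward. The log2 fold changes ran from -0.69 for Il1b to 0.44 for Il1a, 6 of 9 were above 0 (51.4% of all genes), and the median was 0.23 beside 0.009 over all genes. Of the 9 members 0 passed the test of edgeR, DESeq2 or limma-voom and 0 had an unadjusted edgeR p under 0.05, beside 1.03% and 20.9% of all genes in edgeR (10% and 7.83% past the adjusted threshold in DESeq2 and limma-voom). Il18 was at 11.05 ± 2.19 CPM in Ch25h+/+ Tau- and 13.41 ± 2.67 CPM in Ch25h-/- Tau- (SD, n = 4), with a log2 fold change of 0.28 (edgeR adjusted p = 0.313). All 4 Ch25h-/- Tau- libraries are of the class rich in the ribosomal transcript, so genotype and class cannot be told apart here.

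The summed level of 10 microglial markers was 323.2 to 350.3 CPM without tau and 407.5 to 520 CPM with tau in the Ch25h+/+ libraries. In the Ch25h-/- libraries it was 312.5 to 350.7 CPM without tau and 321.6 to 388.9 CPM with it, and none of the 10 was at 0 in any group. With tau in Ch25h+/+ all 10 had log2 fold changes above 0 (47.8% of all genes). Csf1r and Cx3cr1 were among those that rose by edgeR's test, where 1.47% of all genes rose. With Ch25h loss in Tau+ 2 of the 10 had log2 fold changes above 0 (50.7% of all genes). Csf1r, Cx3cr1 and Tmem119 were among those that fell by edgeR's test, where 3.55% of all genes passed in either direction. With Ch25h loss in Tau- 0 of the 10 passed edgeR's test, with 3 at an unadjusted p under 0.05, beside 20.9% of all genes, and DESeq2 and limma-voom each called 2, P2ry12 and Tmem119, beside 10% and 7.83% of all genes. In bulk tissue, more cells of a type and more RNA per cell cannot be told apart. Expressed as a percentage of the microglial marker sum in the same library, Il1b was at 0.0775 to 0.126% without tau and 0.165 to 0.192% with tau in Ch25h+/+, and at 0 to 0.151% without tau and 0.0501 to 0.106% with tau in Ch25h-/-. On this scale Il1b in Ch25h+/+ Tau+ was above each of the other groups. The ratio of means was 1.86 for tau in Ch25h+/+ and 0.432 for Ch25h loss in Tau+. Casp4 was free of overlap for Ch25h loss in Tau+, at 0.108 to 0.227% against 0.0341 to 0.0883% (ratio 0.377). Il1b and Casp4 passed the filter on low counts only through Ch25h+/+ Tau+, where they were high. Their separation is a description and is not read against the shares below. For tau in Ch25h+/+ the groups of Aim2 (ratio 1.26) and Gsdmd, which were free of overlap in CPM, overlapped on this scale. Gsdmd was at 0.798 ± 0.0999% in Ch25h+/+ Tau-, 1.01 ± 0.231% in Ch25h+/+ Tau+, 0.938 ± 0.148% in Ch25h-/- Tau- and 0.960 ± 0.115% in Ch25h-/- Tau+ (SD, n = 4). The background was lopsided on this scale: for tau in Ch25h+/+ 0.959% of all genes were free of overlap upward and 42.4% downward, and for Ch25h loss in Tau+ 31.7% upward and 0.75% downward. No test was run on this scale.

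**Figure D3:**
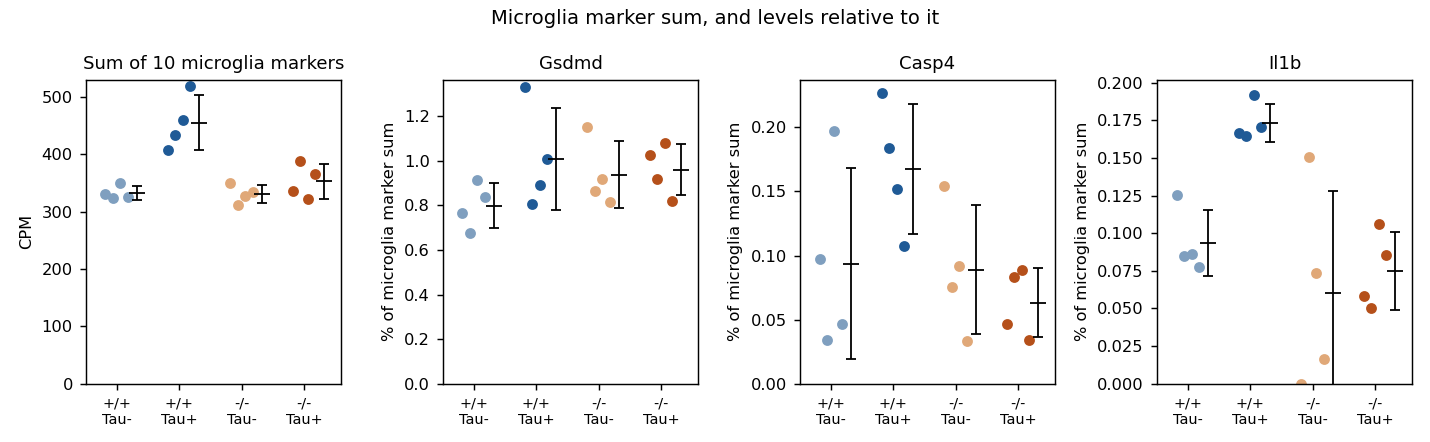
Sum of 10 microglial markers (CPM) and the levels of Il1b, Casp4 and Gsdmd as a percentage of that sum in each library, by group, with points for libraries and bars for the mean ± SD of 4. Il1b in Ch25h+/+ Tau+ (0.165 to 0.192%) is above every other library. It passed the filter on low counts only through that group, so this is a description. The Gsdmd groups overlap.

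Other sources of these transcripts were looked for through their markers. The 6 markers of border-associated macrophages summed to 10.5 ± 3.63, 16.7 ± 3.76, 10.9 ± 4.197 and 12.2 ± 2.97 CPM in the wild-type controls, Ch25h+/+ Tau+, Ch25h-/- Tau- and the combined group (SD, n = 4), with none of the 6 at 0 in a group. In every comparison 0 of the 6 passed edgeR's, DESeq2's or limma-voom's test, with 3 at an unadjusted edgeR p under 0.05 for tau in Ch25h+/+, 2 for Ch25h loss in Tau+ and 2 for the interaction, beside 9.38%, 23.9% and 4.13% of all genes. Neutrophils, which carry much Il1b, were near the floor: their 8 markers summed to at most 2.16 CPM in a library, 1 of the 8 was at 0 in each group, and the defining marker Ly6g had 3 counts over the 16 libraries. The monocyte list summed to 46.2, 71.5, 63.9 and 67.3 CPM on average in the same order. Of its 5 genes 2 were tested and the rest were under the filter on low counts, so the sums do not measure the whole list. Of the 2, Fn1 rose with tau in Ch25h+/+ (edgeR), where 1.47% of all genes rose. Fn1 was also called by DESeq2 for Ch25h loss in Tau-, beside 10% of all genes, with an unadjusted p under 0.05 in all 3 tools (20.9% of all genes in edgeR). The 2 had log2 fold changes above 0 there. For the interaction 1 of the 2 had an unadjusted edgeR p under 0.05, beside 4.13% of all genes. Chil3 had 10 counts in all. The 6 T cell markers summed to 2.14, 1.85, 1.01 and 1.19 CPM on average in the same order, lower in both Ch25h-/- groups. The 1 tested had an unadjusted edgeR p under 0.05 for tau in Ch25h+/+, Ch25h loss in Tau- and the interaction. The shares of all genes there were 9.38%, 20.9% and 4.13%, and the marker did not pass. Blood markers summed to 2.32 to 37.7 CPM and choroid plexus markers to 15.6 to 2738 CPM, with 0 of the 5 blood and 6 choroid plexus markers past edgeR's, DESeq2's or limma-voom's test in any comparison, and 0 at an unadjusted p under 0.05. Of the 6 hippocampal markers 1 was lower with Ch25h loss in Tau- by edgeR's test and was also called by limma-voom, beside 1.03% and 7.83% of all genes. There 3 of the 6 had an unadjusted edgeR p under 0.05, and 3 did for tau in Ch25h-/-, beside 20.9% and 3.68%. At most 1 did in the other comparisons. No cortical marker passed any of the 3 tools. The part of any of these cells, or of the tissue taken, in the values of the members was not tested.

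Further genes of the pathway were taken from a list of 70 arranged by role, of which 51 were tested. With tau in Ch25h+/+ 7 of the 51 rose and 0 fell. Ifi204, which rose, and Zbp1, which did not pass, met the filter on low counts only with the Ch25h+/+ Tau+ libraries, where they were high. Of the other 49, 6 rose, beside 1.36% of the genes that passed the filter without those libraries. With Ch25h loss in Tau+ 4 of the 49 fell, beside 2.37%, and 1 rose, in a comparison where 3.55% of all genes passed in either direction. With tau in Ch25h-/-, Ch25h loss in Tau- and the interaction 0 passed edgeR's test, with 0, 4 and 9 of 51 at an unadjusted p under 0.05, beside 3.68%, 20.9% and 4.13% of all genes. In the same 3 comparisons DESeq2 called 0, 1 and 1, beside 0.079%, 10% and 0.31% of all genes, and limma-voom called 0, 1 and 0, beside 0.0338%, 7.83% and 0.0338%. The median log2 fold change of the 49 was 0.19 for tau in Ch25h+/+, beside -0.01 over the genes that passed in the same way, and -0.09 for Ch25h loss in Tau+, beside 0.01.

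Of the 7 further sensors tested, 6 passed the filter without Ch25h+/+ Tau+, and 1 of these, Naip2, rose with tau in Ch25h+/+. Ifi204, an interferon-inducible relative of Aim2, had 0 to 4 counts per library in Ch25h+/+ Tau-. In Ch25h+/+ Tau+ it had 16 to 32, with a log2 fold change of 3.24 (SE 0.652, edgeR adjusted p = 0.0112). It passed the filter only through that group, so its call is given as a description. Its value for Ch25h loss in Tau+ was -2.00, which did not pass (edgeR adjusted p = 0.0628), and it passed in limma-voom (adjusted p = 0.0332), with no filter (edgeR adjusted p = 0.0383) and without Ch25h-/- Tau+ replicate 2 (-2.93, edgeR adjusted p = 0.027). Naip2, a receptor for bacterial secretion proteins that signals through NLRC4, was at 1.07 ± 0.132 CPM and 2.73 ± 0.658 CPM (SD, n = 4), with 1.36 (SE 0.275, edgeR adjusted p = 0.0115). The latter call was lost without Ch25h+/+ Tau+ replicate 4 (edgeR adjusted p = 0.0607). Naip2 had -0.77 for Ch25h loss in Tau+ (edgeR adjusted p = 0.0993), and it passed in limma-voom (-0.89, adjusted p = 0.0269). Both genes belong to families of near-identical copies, so that the split of reads among copies is uncertain.

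Of 17 genes of priming, activation and restraint, 16 passed the filter without Ch25h+/+ Tau+, and 5 of these rose with tau in Ch25h+/+. With Ch25h loss in Tau+, a comparison that shares the Ch25h+/+ Tau+ libraries, 4 fell. Irf8, a transcription factor of microglia and other myeloid cells, was at 6.29 ± 1.15 CPM in Ch25h+/+ Tau-, 13.1 ± 2.40 CPM in Ch25h+/+ Tau+, 5.69 ± 0.718 CPM in Ch25h-/- Tau- and 6.76 ± 1.47 CPM in Ch25h-/- Tau+, with log2 fold changes of 1.06 for tau in Ch25h+/+ and -0.96 for Ch25h loss in Tau+ (edgeR adjusted p = 0.00225 and 0.0078). Gbp2, an interferon-inducible GTPase of the family that exposes bacterial ligands to AIM2 and caspase-11, was at 3.30 ± 1.14, 7.33 ± 0.749, 3.58 ± 0.724 and 3.31 ± 0.240 CPM in the same order, with 1.15 and -1.14 (edgeR adjusted p = 0.00416 and 0.00742). Tmem176a, a membrane protein whose partner restrains NLRP3, had 0.78 and -0.64 (edgeR adjusted p = 0.00186 and 0.0134), and that partner, Tmem176b, had 0.54 and -0.50 (edgeR adjusted p = 0.0137 and 0.0259). Tmem176b was the fifth of these genes by p and was named after its values were seen. Trim30a, a negative regulator of NLRP3 activation, rose with tau by 1.29 (edgeR adjusted p = 0.0131) and had -0.88 with Ch25h loss (edgeR adjusted p = 0.0661). Its value for Ch25h loss passed in DESeq2 (adjusted p = 0.0236), in limma-voom (adjusted p = 0.0467), with no filter (edgeR adjusted p = 0.0489) and without Ch25h-/- Tau+ replicate 2 (-1.23, edgeR adjusted p = 0.0142). The summed level of the microglial markers above moved with these genes in both comparisons and the library class in the second, and the part of either was not tested.

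The calls for Irf8, Gbp2 and Tmem176a with tau in Ch25h+/+ held in all 22 alternatives. That for Trim30a was lost without Ch25h+/+ Tau- replicate 1 or 4 (edgeR adjusted p = 0.0591 and 0.0532). That for Tmem176b was lost without Ch25h+/+ Tau- replicate 1 or 2, without Ch25h+/+ Tau+ replicate 4 and with only the 8 libraries (edgeR adjusted p = 0.0648, 0.0601, 0.0757 and 0.0516). With the library class as a covariate none of the calls for Ch25h loss in Tau+ remained. The estimates were -0.99 for Irf8, -1.12 for Gbp2, -0.85 for Tmem176a and -0.69 for Tmem176b. They rest on Ch25h-/- Tau+ replicate 1 and are no separate check on the class. For Ch25h loss in Tau+ the call for Tmem176b was also lost without Ch25h+/+ Tau+ replicate 4 or Ch25h-/- Tau+ replicate 2 (edgeR adjusted p = 0.0914 and 0.075). With only the 8 libraries both Tmem176 genes lost it (edgeR adjusted p = 0.0879 for Tmem176a and 0.0939 for Tmem176b).

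**Figure D4:**
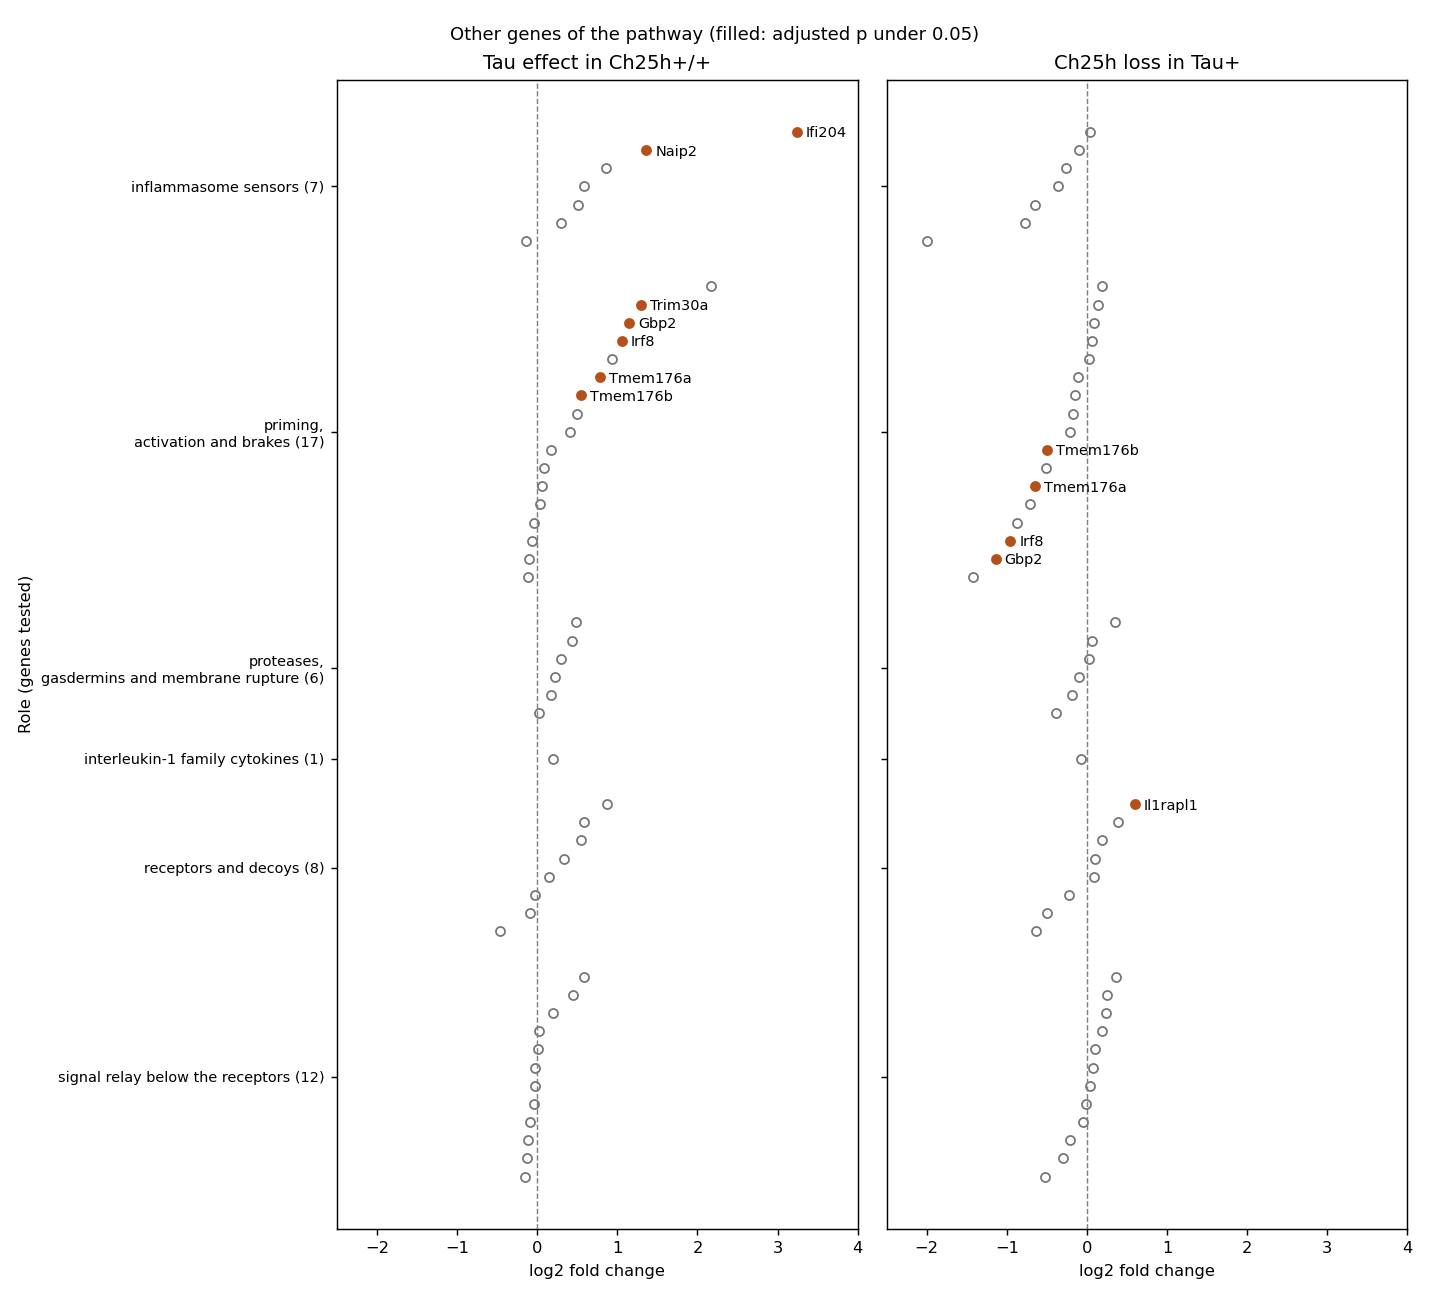
Log2 fold changes of the 51 further pathway genes tested (horizontal axis), arranged by role (vertical axis, ordered by value within a role), for tau in Ch25h+/+ (left) and Ch25h loss in Tau+ (right). Filled points passed the test (adjusted p under 0.05, edgeR), and they are 7 on the left, all to the right of 0, and 5 on the right, of which 4 lie to the left of 0.

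The endogenous antagonist was found almost only in Ch25h+/+ Tau+. Il1rn encodes the interleukin-1 receptor antagonist, which occupies the receptor without signalling. It had 2, 14, 7 and 16 counts in the Ch25h+/+ Tau+ libraries, 0 in all 4 Ch25h+/+ Tau- and all 4 Ch25h-/- Tau+ libraries, and 0, 0, 0 and 1 in Ch25h-/- Tau-. At 0.446 ± 0.277 CPM (SD, n = 4), its mean in Ch25h+/+ Tau+ was at least 3.06-fold higher than in Ch25h+/+ Tau- and at least 2.66-fold higher than in Ch25h-/- Tau+, against a floor of 3 counts per library, which the 2 counts of replicate 1 do not reach. The filter on low counts removed Il1rn from the test, and 39 of its 40 counts lie in Ch25h+/+ Tau+. Its calls with no filter rest on that group and are given as a description, without the share of all genes called. With no filter Il1rn passed for tau in Ch25h+/+ (edgeR adjusted p = 0.00247, and 0.000923 to 0.0252 with each library left out) and for Ch25h loss in Tau+ (edgeR adjusted p = 0.00388, and 0.00166 to 0.0264). The interaction did not pass (edgeR adjusted p = 0.703). With the library class as a covariate the call for tau, between groups of the same class, was kept (edgeR adjusted p = 0.00183). That for Ch25h loss was lost, in a fit that rests on Ch25h-/- Tau+ replicate 1. In the Ch25h-/- Tau+ library with little of the ribosomal transcript Il1rn was also at 0 counts.

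Of the other cytokines none that was tested passed, and of the receptors and decoys 1 did. Il33, an alarmin that brain glia hold in their nuclei, was abundant, at 43.4 ± 4.62 CPM in Ch25h+/+ Tau- and 49.5 ± 8.57 CPM in Ch25h+/+ Tau+ (SD, n = 4), with a log2 fold change of 0.19 (edgeR adjusted p = 0.701) and of -0.07 for Ch25h loss in Tau+ (edgeR adjusted p = 0.749). The remaining 5 genes of that role, Il1f5, Il1f6, Il1f8, Il1f9 and Il1f10, had 0 to 53 counts in sum over the 16 libraries and were not tested. Il1r1, the signalling receptor for both interleukin-1 forms, was at 4.07 ± 0.608 and 6.08 ± 1.61 CPM in those groups, with 0.58 (edgeR adjusted p = 0.336, and 0.0463 in limma-voom, which called 2.81% of all genes there). Il18bp, the soluble decoy of interleukin-18, was at 6.33 ± 1.08 CPM in Ch25h+/+ Tau- and 4.58 ± 0.119 CPM in Ch25h+/+ Tau+. It had -0.47 (SE 0.239) and did not pass (edgeR adjusted p = 0.588). Of the 8 receptors and decoys tested 1 passed, with Ch25h loss in Tau+, where 3.55% of all genes passed in edgeR. This was Il1rapl1, a neuronal synaptic relative of the interleukin-1 receptor. It rose from 14.0 ± 1.90 to 21.3 ± 1.40 CPM (log2 fold change 0.60, SE 0.124, edgeR adjusted p = 0.0167). With Ch25h loss in Tau- it had 0.34 and did not pass (edgeR adjusted p = 0.135). The call in Tau+ was lost without Ch25h+/+ Tau+ replicate 4 (edgeR adjusted p = 0.0719) and without Ch25h-/- Tau+ replicate 4 (edgeR adjusted p = 0.0632). It was also lost with the class covariate (0.55), a fit that rests on Ch25h-/- Tau+ replicate 1. Of the 6 further proteases and gasdermins 0 passed edgeR's, DESeq2's or limma-voom's test in any comparison, with 1 at an unadjusted edgeR p under 0.05 for tau in Ch25h+/+ and 1 for Ch25h loss in Tau+, beside 9.38% and 23.9% of all genes. Of the 12 genes of the relay below the receptors 0 passed edgeR's test, with 1, 0, 6, 3 and 1 at an unadjusted p under 0.05 for tau in Ch25h+/+, tau in Ch25h-/-, Ch25h loss in Tau+, Ch25h loss in Tau- and the interaction, beside 9.38%, 3.68%, 23.9%, 20.9% and 4.13% of all genes. DESeq2 called 3 of these 12 (Map3k7, Myd88 and Tab3) and limma-voom 2 (Map3k7 and Tab3) for Ch25h loss in Tau+, beside 9.54% of all genes in DESeq2 and 10.6% in limma-voom, and each called Tab3 for Ch25h loss in Tau-, beside 10% and 7.83%. These were named after their values were seen.

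The genes whose levels followed each member most closely over the 16 libraries were named for the 6 members with a mean of at least 20 counts, by Pearson's r of log2(CPM + 0.5). For Gsdmd these were Mx2 (r = 0.919), Anxa3 (0.886) and Eva1b (0.885), and for Pycard they were Spp1 (0.864), Serping1 (0.856) and Ctsh (0.85). Aim2 was followed by Pla2g4a (0.822), Gbp9 (0.817) and Gm10863 (0.803), Casp1 by Phf11d (0.817), Hspa14 (0.801) and Rhoa (0.751), Nlrp3 by Fen1 (0.79), Zfp143 (0.785) and Brd1 (0.748), and Il18 by Gm29683 (0.794) and Gm45885 (0.761). Among the members, Gsdmd and Pycard had r = 0.81, whereas Nlrp3 and Il18 had r = -0.631. The libraries share groups, library classes and depth, and the coefficients describe these 16 libraries only.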

How the data were processed

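RNA was sequenced from 16 libraries in 4 groups of 4, grouped by the genotype label. The authors deposited 1 table of raw counts per gene. Reads were aligned with STAR 2.7 to GRCm38 (mm10), per the submitters' processing notes. The counting program, its annotation and its use of strand are not given in the sources used here. Libraries held 15530352 to 25602500 counts.

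From these counts, filterByExpr over the 4 groups kept 17736 of 54532 entries, libraries were scaled by TMM, and 1 model with a mean per group was fitted to all 16 libraries with edgeR 4.0.16 and its two-sided test by quasi-likelihood in R 4.3.3, with Benjamini-Hochberg adjustment over all genes tested and a threshold of 0.05. Standard errors are the log2 fold change over the root of F. Alternatives were DESeq2 1.42.0, limma 3.58.1 (voom with quality weights), RLE scaling, no filter beyond 1 count, only the 8 libraries compared, the library class (1000 CPM of the ribosomal transcript) as a covariate, each library left out and CPM on library totals. Leaving out a library and the class covariate were applied to Il1rn with no filter after the data were seen, and the counts over genes that passed the filter without Ch25h+/+ Tau+ were also added then. DESeq2 shares are of the genes to which it gave an adjusted p. The procedure was tested on simulated data.

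The 9 members, the pathway list and the marker lists (microglia, border-associated macrophages, neutrophils, monocytes, T cells, choroid plexus, blood, cortex, hippocampus) were chosen with earlier results of these data known. Beside the members, the text names up to 4 called genes of each role by smallest p, Il1rn, Il1r1, Il18bp and Il33 in any case, and the 3 genes most like each member with a mean of at least 20 counts. Symbols of 70 of 70 listed genes were matched, some through RefSeq synonyms. Some genes that these rules would name are not reported here.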

Additional observations from a re-analysis of the deposited data

Results flagged for a closer look

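Casp1 in Ch25h-/- Tau- was at 3.74 CPM in replicate 4, and the nearest other library of the group was at 2.94 CPM. The gap was 0.879 of the range of the group, above Dixon's 95% critical value for 4 libraries. This was the only one of the 36 combinations of member and group to pass that limit, and chance alone passes it in about 1 in 20.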

How the results depend on the processing

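With tau in Ch25h+/+, the number of members that passed was 1, and 0 with no filter, with only the 8 libraries and with the class covariate (0 to 1 with a library left out). The pathway count of 7 became 10 with no filter, in DESeq2 and in limma-voom, and 6 with only the 8 libraries (5 to 8 with a library left out). For Ch25h loss in Tau+ the number of members was 0, and 1 in limma-voom (0 to 1 with a library left out, 1 without Ch25h-/- Tau- replicate 1). The pathway count of 5 became 8 with no filter, 11 in DESeq2, 12 in limma-voom, 3 with only the 8 libraries and 0 with the class covariate (3 to 7 with a library left out, 3 without Ch25h+/+ Tau+ replicate 4). For Ch25h loss in Tau- the pathway count of 0 became 1 in DESeq2, limma-voom and with only the 8 libraries (0 to 2, with 2 without Ch25h+/+ Tau+ replicate 1), and for the interaction it became 1 in DESeq2, Gbp2. The call for Il1rn with Ch25h loss in Tau+ was lost with the class covariate (adjusted p = 0.769). The cause of these shifts was not tested.

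Of 977 log2 fold changes of members under the alternatives, 938 kept their direction and side of the threshold, 10 lost the threshold, 2 gained it and 27 changed sign. All sign changes were in estimates that had not passed. For tau in Ch25h-/- Pycard became 0.040 in limma-voom and 0.010 with the class covariate, and Il1a became -0.074 in limma-voom. For Ch25h loss in Tau-, Casp1 became -0.11 and Il1a -0.25 with the class covariate, and Casp4 became 0.066 in limma-voom. For the interaction Nlrp3 became 0.16 with the class covariate, and for Ch25h loss in Tau+ Il33 became 0.0050 with it. With each library left out, the ranges that crossed 0 were, for tau in Ch25h+/+, Il18 -0.0028 to 0.19 and Il1rapl1 -0.12 to 0.046. For tau in Ch25h-/- they were Nlrp3 -0.032 to 0.54, Aim2 -0.14 to 0.19, Pycard -0.21 to 0.19, Casp1 -0.44 to 0.030, Casp4 -0.71 to 0.014 and Il1a -0.51 to 0.27. For Ch25h loss in Tau+ they were Il1a -0.71 to 0.062, Il18 -0.014 to 0.12 and Il33 -0.16 to 0.027. For Ch25h loss in Tau- they were Casp1 -0.043 to 0.11 and Casp4 -0.60 to 0.55, and for the interaction Nlrp3 -0.38 to 0.19.

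The 36 group means of the members moved by less than 1 SD on library totals. Depth limits Casp4 and Il1b most: at 2 to 19 and 0 to 19 counts, counting error alone reached 50% of a group mean of Casp4 and was 24.6 to 55.5% of that of Il1b. With only 8 libraries, Casp4 or Il1b fell below the filter in some comparisons and has no value there. No paired analysis was possible because the labels carry no replicate numbers, and those used here follow accession order.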
